A study of Mus musculus with 2 samples.

Results

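The genes described here are 10 acute phase genes: Saa1, Saa2, Saa3, Orm1, Orm2, Hp, Apcs, Lcn2, Serpina3n and Itih4. They were chosen by gene symbol from the 19465 genes of the count matrices. Of these 10, 8 have a row in the matrices, and Saa1 and Saa2 are not analysed here. Spatial transcriptomics was performed on 1 liver section of 1 mouse per genotype. The AEG-1-WT mouse (WT below) carried wild-type AEG-1 (also named Mtdh), and its AEG-1-C75S littermate (C75S below) carried a knock-in in which cysteine 75, the palmitoylated residue of AEG-1, is replaced by serine. The knock-in is in the germline, so every cell type of the AEG-1-C75S liver carries it. Both mice were 8-week-old naïve females that received no treatment, and the sections were taken from the same lobe at a thickness of 5 μm. The question put to the data is how these genes differ between the genotypes, across the liver lobule and from place to place within a section. With 1 section per genotype there is no measure of the spread between mice, so no test was made between the sections, and a difference between them is a difference between those mice. Genotype, mouse and the handling of each section cannot be told apart.

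The acute phase response is the change in plasma proteins that follows infection or injury. IL-6, acting through its receptor and STAT3, and IL-1, acting through NF-κB and the C/EBP factors, switch hepatocytes to secrete these proteins, while others such as albumin are made less. The response also has a part outside hepatocytes, since macrophages, bile duct cells and other cells make some of the same proteins. Saa1 and Saa2 are the serum amyloid A proteins that circulate on high-density lipoprotein in an inflamed mouse, whereas Saa3 is made largely in tissues, macrophages included. Orm1 and Orm2 encode orosomucoids (alpha-1-acid glycoproteins), Hp encodes haptoglobin, which binds free hemoglobin, and Apcs encodes serum amyloid P, a pentraxin. Lcn2 encodes lipocalin 2, which withholds iron from bacteria by binding their siderophores. Serpina3n encodes an inhibitor of serine proteases, and Itih4 encodes a heavy chain of the inter-alpha-trypsin inhibitor family.

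The sequences upstream of 4 genes named often below are shown. Orm2 and its neighbor Orm3 differed between the sections by a similar amount, and Saa3, Lcn2 and Orm2 were higher in the same places. No result below uses these sequences, and their part in either pattern was not tested. Each run is the 250 bases before the transcription start in RefSeq (GRCm38.p6), written 5′ to 3′ on the strand of the gene. The windows are chr4:63362199-63362448 on the plus strand for Orm2, chr4:63355908-63356157 on the plus strand for Orm3, chr7:46715677-46715926 on the minus strand for Saa3 and chr2:32387740-32387989 on the minus strand for Lcn2. These RefSeq starts can differ from the gene spans given below, which are from GENCODE. The Lcn2 window lies inside its GENCODE span, and the Saa3 window overlaps the start of its own. Capitals mark matches to the C/EBP motif TTGCNNAA on either strand.
Orm2: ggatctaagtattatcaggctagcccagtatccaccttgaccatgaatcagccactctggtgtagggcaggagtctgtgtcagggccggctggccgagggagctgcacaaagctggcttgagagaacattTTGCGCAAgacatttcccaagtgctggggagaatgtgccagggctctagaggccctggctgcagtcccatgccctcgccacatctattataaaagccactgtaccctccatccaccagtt
Orm3: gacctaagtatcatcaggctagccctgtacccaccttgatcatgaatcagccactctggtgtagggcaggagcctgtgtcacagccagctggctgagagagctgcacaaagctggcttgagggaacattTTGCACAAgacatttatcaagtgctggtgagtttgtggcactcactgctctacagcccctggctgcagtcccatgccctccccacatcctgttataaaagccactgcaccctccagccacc
Saa3: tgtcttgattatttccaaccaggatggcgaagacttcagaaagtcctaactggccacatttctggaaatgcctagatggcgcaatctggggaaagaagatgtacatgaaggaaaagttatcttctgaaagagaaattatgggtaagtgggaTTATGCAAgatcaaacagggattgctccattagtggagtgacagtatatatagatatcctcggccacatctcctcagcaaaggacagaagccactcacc
Lcn2: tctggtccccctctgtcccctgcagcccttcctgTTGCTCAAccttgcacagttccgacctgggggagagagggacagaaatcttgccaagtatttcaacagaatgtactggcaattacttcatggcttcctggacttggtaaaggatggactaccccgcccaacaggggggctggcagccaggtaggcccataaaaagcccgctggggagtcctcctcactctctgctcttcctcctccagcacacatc
Each of these windows holds a single match, which lies 120 bases before the start in Orm2, 121 in Orm3, 99 in Saa3 and 216 in Lcn2. Among all 32851 RefSeq upstream windows of the same length, 9.56% hold this motif. Of the 10 acute phase genes, 8 had an entry in the RefSeq table, and 5 of those 8 windows held the motif (Saa1, Saa2, Saa3, Orm2 and Lcn2). Saa1 and Saa2 have no expression values here. Saa4, which is not among the 10 genes, held 2 matches, 245 and 52 bases before the start. Orm1 and Hp had no entry. The STAT motif TTCNNNGAA was found in the windows of Apcs and Itih4 (7.02% of all windows), and the STAT3-type acute phase motif CTGGGAA was found in that of Apcs (9.1% of all windows). The consensus site of NF-κB (3.9% of all windows) was in none of the 8. None of these matches overlap one another. A match shows only that the letters are present in the window.

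The values are counts of unique molecular identifiers (UMIs), each of which stands for 1 captured probe pair, in spots of the slide. A spot is a small region that can hold several cells. Spots with more than 50000 UMIs were left out, which left 2309 of 2316 spots in WT with 42246988 UMIs and 2163 of 2167 spots in C75S with 41674347 UMIs. Median UMIs per spot were 16830 and 18808, respectively. The spot barcodes are positions of the slide layout, and 1896 of them occur in both sections. Alb, the albumin gene of hepatocytes, held 5380256 UMIs of the WT section and 5040590 of the C75S section. Levels are given as counts per 1000000 UMIs of the section (CPM) with exact Poisson 95% intervals, and ratios as log2 of C75S over WT with exact binomial 95% intervals. Both kinds of interval cover counting error only. Levels of different genes are not read as relative amounts of RNA, since genes are read by different probes. Sums over gene lists and ratios within the orosomucoid family are compared only between the sections or between groups of spots. In a spot, fewer cells of a type and less RNA per cell cannot be told apart.

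Between the sections, Orm2 was the acute phase gene with the largest difference, and it was higher in C75S. A difference past 1.5-fold was seen in 2 of the 8 genes, Orm2 upward and Saa3 downward. Among all 12004 genes with at least 50 UMIs, 2.29% were past 1.5-fold upward and 5.2% downward, and the median log2 ratio was -0.05. The median over the 8 acute phase genes was -0.10, with 3 ratios above 0 and 5 below. Over all genes tested, 40.3% of ratios were above 0. The split of the list was thus near that of all genes, and the list did not move in a single direction.

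The orosomucoid genes lie side by side on chromosome 4 (GRCm38), in the order Orm1, Orm3, Orm2, over 21.3 kb (chr4:63344560-63365878, all protein-coding and on the plus strand). Orm2 counted 1651 UMIs in WT and 3632 in C75S, or 39.1 CPM (37.2 to 41.0) and 87.2 CPM (84.3 to 90.0). The log2 ratio was 1.16 (1.07 to 1.24), a 2.23-fold difference. The neighboring Orm3, which is not among the 10 genes, went from 450 to 1012 UMIs, or 10.7 to 24.3 CPM, with a log2 ratio of 1.19 (1.03 to 1.35). Orm1 showed a smaller difference in the same direction, from 54551 to 66185 UMIs. Its level was 1291 CPM in WT and 1588 CPM in C75S, with a log2 ratio of 0.30 (0.28 to 0.31). The difference was thus unequal within the family: 30.3 Orm2 UMIs were counted per 1000 Orm1 UMIs in WT (28.8 to 31.8), and 54.9 in C75S (53.1 to 56.7). For Orm3 the corresponding values were 8.25 (7.50 to 9.05) and 15.3 (14.4 to 16.3). These genes are close paralogs. Their transcripts in GENCODE vM21 are 775 bases long for Orm1 and Orm2 and 773 for Orm3, with 91.0% identical bases between Orm1 and Orm2, 86.5% between Orm1 and Orm3 and 88.5% between Orm2 and Orm3. Orm1 and Orm2 share a run of 141 identical bases. How well the probes tell them apart was not tested, so the division of UMIs among the orosomucoid genes is uncertain.

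Saa3 and Lcn2, which are made by cells other than hepatocytes as well, were lower in C75S. Saa3 (chr7:46711998-46715700, minus strand) is sparse, with 234 UMIs in WT and 151 in C75S. Its level was 5.54 CPM (4.85 to 6.30) against 3.62 CPM (3.07 to 4.25), with a log2 ratio of -0.61 (-0.92 to -0.31), a value just past 1.5-fold, which is 0.585 in size on this scale. Leaving out the 1% of spots highest in Saa3 in each section brought the ratio to -0.43. Other scalings of the sections, such as centring on the median gene, also ended the call, and Saa3 stayed past 1.5-fold in 5 of 12 alternative settings. Lcn2 (chr2:32384633-32388252, minus strand) counted 734 and 530 UMIs. Its level was 17.4 CPM (16.1 to 18.7) in WT and 12.7 CPM (11.7 to 13.8) in C75S, a log2 ratio of -0.45 (-0.61 to -0.29) that stayed short of 1.5-fold.

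The remaining members, all secreted by hepatocytes, differed little. They lie on other chromosomes (GRCm38, all protein-coding): Hp at chr8:109575128-109579172 and Apcs at chr1:172893961-172895041 on the minus strand, Serpina3n at chr12:104406729-104414329 and Itih4 at chr14:30886476-30902353 on the plus strand. Hp was at 824 CPM in WT and 849 CPM in C75S, with a log2 ratio of 0.04 (0.02 to 0.06). Apcs was at 339 and 319 CPM (log2 ratio -0.09, -0.12 to -0.06), and Serpina3n at 224 and 205 CPM (-0.13, -0.17 to -0.09). Itih4 was at 2926 and 2710 CPM, a log2 ratio of -0.11 (-0.12 to -0.10). The intervals of all 8 members exclude 0, and the share over all genes is not given here. Such intervals cover counting error alone and say nothing about the spread between mice. Those of Saa3 (-0.92 to -0.31) and Lcn2 (-0.61 to -0.29) also include the 1.5-fold line. For scale, 90% of all genes tested had ratios between -0.60 and 0.40.

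**Figure D1:**
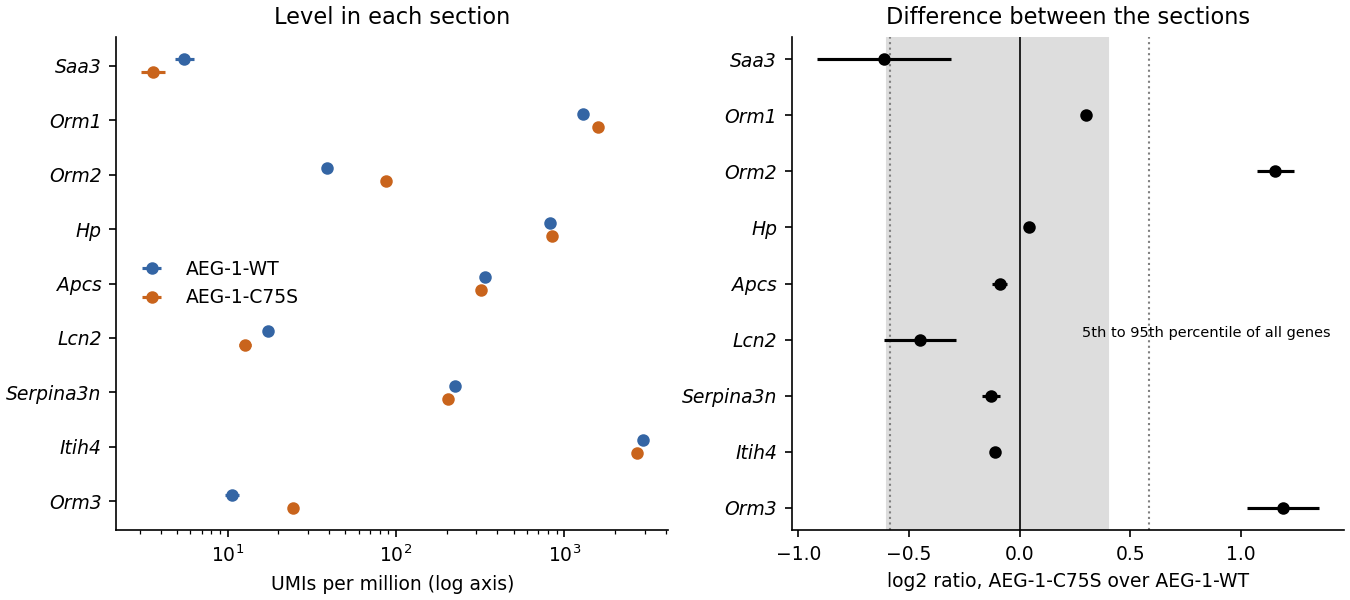
Levels of the 8 acute phase genes and of Orm3 in each section (left, CPM on a log axis, bars are exact Poisson 95% intervals) and their log2 ratios of C75S over WT (right, bars are exact binomial 95% intervals, dotted lines mark 1.5-fold, the grey band holds the 5th to 95th percentile of all genes). Orm2 at 1.16 and Orm3 at 1.19 lie to the right of the band, and Saa3 at -0.61 lies at its left edge.

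Markers of other cells differed between these sections as well. All 8 Kupffer cell genes were above 0 on the log2 scale in C75S (summed level 969 CPM in WT and 1283 CPM in C75S), and all 5 portal connective tissue genes were past 1.5-fold lower (126 and 54.1 CPM). The 5 cholangiocyte genes summed to 129 and 96.6 CPM. Of the 12 neutrophil genes, 3 had at least 50 UMIs. Of these, S100a8 and S100a9 were past 1.5-fold higher in C75S, whereas Mmp9 was lower (log2 ratio -0.43). Ltf had no UMI in either section, Ly6g had 0 and 1, and Mpo 0 and 4. The summed neutrophil genes were at 7.86 and 13.0 CPM. With the 10% of spots richest in Kupffer cell genes left out of each section, the Saa3 log2 ratio was -0.54, that of Lcn2 -0.49 and that of Orm2 1.18. With the spots richest in portal connective tissue genes left out, the ratios were -0.46, -0.39 and 1.20. The Orm2 difference was as large without either group of spots. The spots that remained can hold the same cells, and the part of those cells in the ratios was not tested.

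Along the lobule, the acute phase genes formed shallow gradients compared with the steep zonation markers Hal and Oat. Spots of each section were ordered from periportal to pericentral by the ratio of Cyp2f2 to Cyp2e1, a periportal and a pericentral cytochrome P450, and divided into 5 quintiles. Genes that were not used for the ordering followed it. Hal, a periportal enzyme of histidine breakdown, was 4.33-fold and 3.82-fold higher in the first quintile than in the last, and Oat, a pericentral ornithine aminotransferase, had log2 ratios of -3.08 and -2.96. Not all markers were that steep. Arg1, also periportal, had log2 ratios of 0.80 in WT and 0.95 in C75S, near those of Lcn2 below. Outside the list, Alb had ratios of 0.72 and 0.66, and the acute phase gene Hpx of 0.87 and 0.81.

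Lcn2 was the member with the steepest gradient, and it was highest around the portal end. From the periportal to the pericentral quintile, Lcn2 was at 21.7, 21.9, 16.3, 13.6 and 13.4 CPM in WT. In C75S it was at 16.9, 13.5, 12.9, 11.1 and 9.31 CPM. The end quintiles differed by log2 ratios of 0.70 (0.35 to 1.07) and 0.86 (0.45 to 1.28), and Lcn2 was the sole member past 1.5-fold in both sections. Of 9736 genes with at least 50 UMIs in the end quintiles of each section, 1.63% were past 1.5-fold toward the periportal end in both and 2.86% toward the pericentral end. Without the 1% of spots highest in Lcn2, the WT ratio was 0.51, short of 1.5-fold. Without every spot that held a Saa3 UMI (163 spots in WT and 124 in C75S), the C75S ratio was 0.58, also short of it. Lcn2 was also higher in the 5% of spots richest in cholangiocyte genes, at 36.0 CPM against 16.3 CPM elsewhere in WT and 23.1 against 12.2 CPM in C75S. The spots richest in portal connective tissue genes gave similar values, 35.9 against 16.3 CPM and 21.6 against 12.3 CPM. In the spots richest in Kupffer cell genes, Lcn2 was at 23.8 against 17.1 CPM in WT (log2 ratio 0.48, -0.01 to 0.93). In C75S it was at 21.8 against 12.3 CPM (0.83, 0.35 to 1.28). These groups of spots can overlap, and their overlap was not examined. With the 10% of spots richest in cholangiocyte genes left out, the axis ratios of Lcn2 were 0.70 and 0.76, both past 1.5-fold.

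Orm1 declined steadily from the portal to the central end, from 1482 to 1093 CPM in WT (log2 ratio 0.44, 0.40 to 0.48) and from 1732 to 1414 CPM in C75S (0.29, 0.26 to 0.33). Itih4 differed less between the end quintiles, at 3114 and 2663 CPM in WT and 2800 and 2494 CPM in C75S (log2 ratios 0.23 and 0.17), and its highest level in C75S was in quintile 2, at 2847 CPM. Hp was highest in the most periportal quintile, at 911 and 958 CPM, and lay between 774 and 846 CPM in the other 4 quintiles of both sections. Orm2 had log2 axis ratios of 0.28 (0.05 to 0.50) and 0.29 (0.14 to 0.45), and Serpina3n of 0.11 and 0.14. Apcs was lowest at the portal end in WT, at 307 CPM, and reached 362 CPM in quintile 3. In C75S it was at 301 CPM at the portal end, 331 CPM in quintile 2 and 305 CPM at the central end. Its log2 axis ratio in C75S was -0.02 (-0.10 to 0.06). Saa3 showed no gradient that counting error could resolve, with log2 axis ratios of -0.38 (-1.04 to 0.27) and 0.16 (-0.64 to 0.98).

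Within the quintiles, the intervals of the ratio between the sections excluded 0 throughout for Orm1, Orm2 and Itih4. Orm2 was higher in C75S in all 5 quintiles, with log2 ratios between 1.06 and 1.36, and Orm3 between 1.04 and 1.41. Orm1 was higher by 0.23 at the portal end and 0.37 at the central end. Lcn2 was lower by between 0.29 and 0.70 in the 5 quintiles, and Saa3 by between 0.36 and 0.91. Hp alone changed sign between quintiles, and in at least 1 quintile the interval included 0 for Saa3, Lcn2, Apcs, Serpina3n and Hp. The quintiles are parts of the same sections, so a sign shared by them is not a repeat of the result. How often other genes keep their sign is not given here. The axis ratio itself differed past 1.5-fold between the sections in 0 of the 8 genes, against 6.22% of all genes tested. Intervals of that difference excluded 0 for Orm1 (-0.15, -0.20 to -0.09), Itih4 (-0.06, -0.10 to -0.02) and Apcs (0.12, 0.01 to 0.24), all of small size. The same held for some genes outside the list, Alb and Apoa1 among them, and its share over all genes is not given here.

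**Figure D2:**
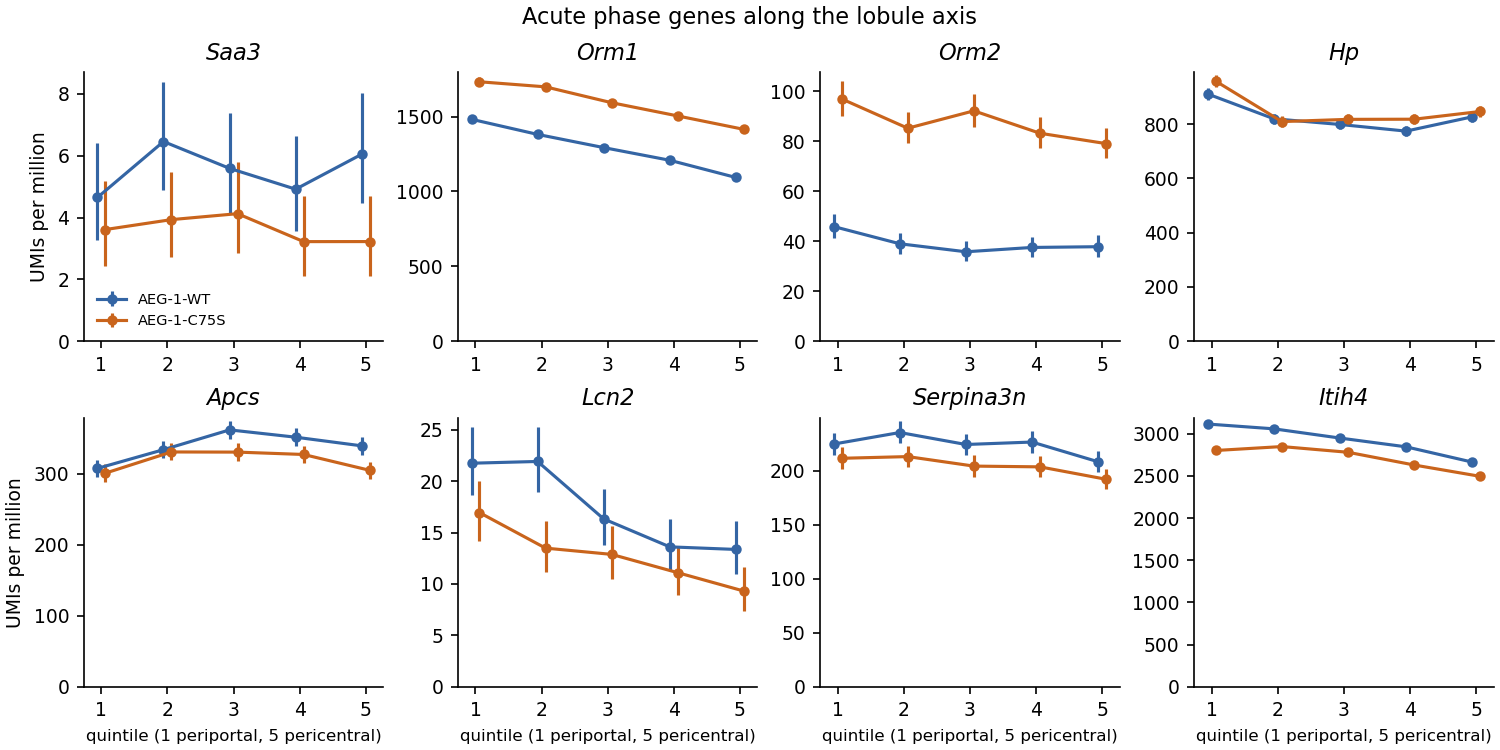
Level of each acute phase gene (CPM, axes from 0) in quintiles of the spots from periportal (1) to pericentral (5) in each section, with exact Poisson 95% intervals. Lcn2 falls from 21.7 to 13.4 in WT and from 16.9 to 9.31 in C75S, and Orm2 of C75S lies above that of WT in every quintile.

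From place to place within a section, the genes ranged from uniform to patchy. The spread between spots that counting error does not account for, as a percentage of the mean, was 7.80% and 7.51% for Itih4 in WT and C75S. It was 12.8% and 10.6% for Orm1 and 28.5% and 23.1% for Hp. Apcs stood at 12.8% and 8.96%, and for Serpina3n it was 10.6% in WT and not above counting error in C75S. Lcn2 and Saa3 were far more uneven, at 124% and 115% for Lcn2 and 370% and 286% for Saa3. Orm2 lay between Hp and Lcn2, at 74.6% and 36.0%, and in C75S it was nearer to Hp. Of 10223 genes with at least 100 UMIs in each section, Saa3 had the 11th highest spread in WT and the 4th highest in C75S, and Lcn2 the 145th and the 73rd. Orm2 ranked 539th in WT and 1689th in C75S. The 1% of spots richest in Saa3 held 38.0% of its UMIs in WT and 32.5% in C75S. The corresponding shares were 2.49% and 2.38% for Itih4.

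At least 1 UMI of Orm2 was seen in 47.5% of spots (45.5 to 49.6, exact binomial 95% interval) in WT and 74.7% (72.8 to 76.5) in C75S. With each spot thinned to 3000 UMIs (4 and 3 spots were too shallow and dropped), the expected shares were 10.9% and 22.6%. Lcn2 was seen in 23.6% and 19.0% of spots (4.84% and 3.43% after thinning) and Saa3 in 7.06% and 5.73% (1.5% and 1.01%). Orm1 and Itih4 were seen in every spot of both sections.

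Saa3, Lcn2 and Orm2 were high in the same spots. Spots were sorted by their Saa3 UMIs, with the limit of 2 chosen after the data had been seen. In WT, 28 spots held 2 or more Saa3 UMIs (1.21% of spots, 0.807 to 1.75, highest count 10), and in C75S 14 spots did (0.647%, 0.354 to 1.08, highest count 8). Their numbers from the periportal to the pericentral quintile were 5, 7, 7, 4 and 5 in WT and 4, 3, 2, 4 and 1 in C75S, so each quintile held some. Lcn2 was at 117 CPM in these spots of WT against 16.0 CPM in the 2146 spots without Saa3, a 7.30-fold difference. In C75S it was at 97.1 against 11.7 CPM in 2039 spots, an 8.33-fold difference. Orm2 was at 183 against 36.3 CPM in WT (5.03-fold) and 279 against 84.9 CPM in C75S (3.28-fold). Lcn2 and Orm2 were thus past 1.5-fold in the Saa3-rich spots of both sections, which makes 2 of the 7 other members against 1.69% of the 7509 genes for which at least 3 UMIs would have been expected there. By the lower of their log2 ratios in the sections, Lcn2 came next after Cxcl9, followed by Orm2, among those 7509 genes.

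Hp was also higher in the Saa3-rich spots, at 1351 against 813 CPM in WT (1.66-fold) and 1262 against 844 CPM in C75S (log2 ratio 0.58, just short of the line). Orm1 was 1.18-fold and 1.20-fold higher. Itih4, Apcs and Serpina3n had log2 ratios between -0.10 and 0.21 in the same spots. Orm3, the paralog that shared the Orm2 difference between sections, had values near 1-fold there. It was at 10.3 against 10.5 CPM in WT and 28.2 against 24.4 CPM in C75S, on 5 and 9 UMIs. The intervals of its log2 ratio, -1.66 to 1.21 and -0.93 to 1.14, lie below those of Orm2 at 2.01 to 2.64 and 1.40 to 2.02. The fibrinogen genes Fga, Fgb and Fgg, which encode the subunits of the main clotting protein, had log2 ratios between -0.05 and 0.03. Hpx, the heme-binding protein hemopexin, was 1.39-fold and 1.46-fold higher. None of the 28 other positive acute phase genes tested there was past 1.5-fold upward in both sections.

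The first gene of that ranking was Cxcl9, a chemokine induced by interferon gamma that attracts T cells, 13.6-fold higher than in spots without Saa3 in WT and 18.9-fold higher in C75S (73 and 75 UMIs). The others of the first 10, besides Lcn2 and Orm2, were the eosinophil chemokine Ccl24, the class II antigen H2-Eb1, the interferon-induced Gbp2, the actin regulators Evl and Coro1a, the myeloid transcription factor Irf8, and Marco, a scavenger receptor of macrophages. Of the 3 monocyte and dendritic cell genes with enough UMIs to test (Cd74, H2-Ab1 and H2-Aa, all of class II antigen presentation), all 3 were past 1.5-fold in both sections. Cd74 had log2 ratios of 1.09 and 1.54. Ccr2, with too few UMIs to test, was 7.84-fold higher on 12 UMIs in C75S (1.99 to 3.81 on the log2 scale). In WT it had 3 UMIs, with an interval that included 0. Itgax and Lyz2 had at most 3 UMIs there in either section. The 8 lymphocyte genes, none with enough UMIs to test, summed to 24 UMIs in the WT spots (49.3 against 22.5 CPM in spots without Saa3). In the C75S spots they summed to 18 UMIs (56.4 against 26.0 CPM). Of 8 Kupffer cell genes, Marco alone was past 1.5-fold in both, and Clec4f, a defining Kupffer cell gene, had log2 ratios of 0.30 and -0.35. The neutrophil genes summed to 8 UMIs in the WT spots (16.4 against 7.85 CPM in spots without Saa3). In the C75S spots they summed to 19 UMIs (59.5 against 12.7 CPM). There S100a9 was 5.30-fold higher on 12 UMIs (1.44 to 3.23 on the log2 scale), and S100a8 4.78-fold higher on 5 (0.61 to 3.52). In WT each had 3 UMIs, with intervals that included 0. In each section 8 of the 12 genes had no UMI in those spots. Ly6g, Mpo and Elane were among them, but they had at most 3 UMIs in the spots without Saa3 of either section. Their zeros are therefore uninformative. The 6 interferon-stimulated genes, which mark the type I response, included none past 1.5-fold upward in both. With 1.69% of all genes tested past it, 6 genes can readily hold none. Saa3 itself was at 22.6 CPM in the 5% of spots richest in Kupffer cell genes against 4.81 CPM elsewhere in WT, and at 10.9 against 3.25 CPM in C75S. In WT it was also higher in the spots richest in red blood cell genes, at 12.1 against 5.17 CPM (log2 ratio 1.22, 0.58 to 1.80), and in portal connective tissue genes, at 10.5 against 5.25 CPM (0.325 to 1.61 on the log2 scale). In C75S those contrasts rested on 4 and 8 UMIs, with intervals that included 0. The part of any of these cells in the levels of Saa3, Lcn2 and Orm2 was not tested.

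These contrasts grew with the limit on Saa3. With 3 or more Saa3 UMIs (12 and 6 spots), Orm2 was 9.13-fold and 3.69-fold higher than in spots without Saa3, and Lcn2 12.2-fold and 13.4-fold higher. With 1 or more (163 and 124 spots), Orm2 was 1.98-fold and 1.39-fold higher, and Lcn2 2.07-fold and 2.32-fold higher. Median UMIs per spot were 16345.5 in the Saa3-rich spots and 16752.5 in those without Saa3 in WT, and 24896 and 18655 in C75S. With spots of 10000 to 30000 UMIs alone, the Orm2 differences were 5.04-fold and 3.66-fold. The differences between the sections were as large without these places: spots with no Saa3 UMI gave a log2 ratio of 1.22 for Orm2 and of -0.46 for Lcn2.

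**Figure D3:**
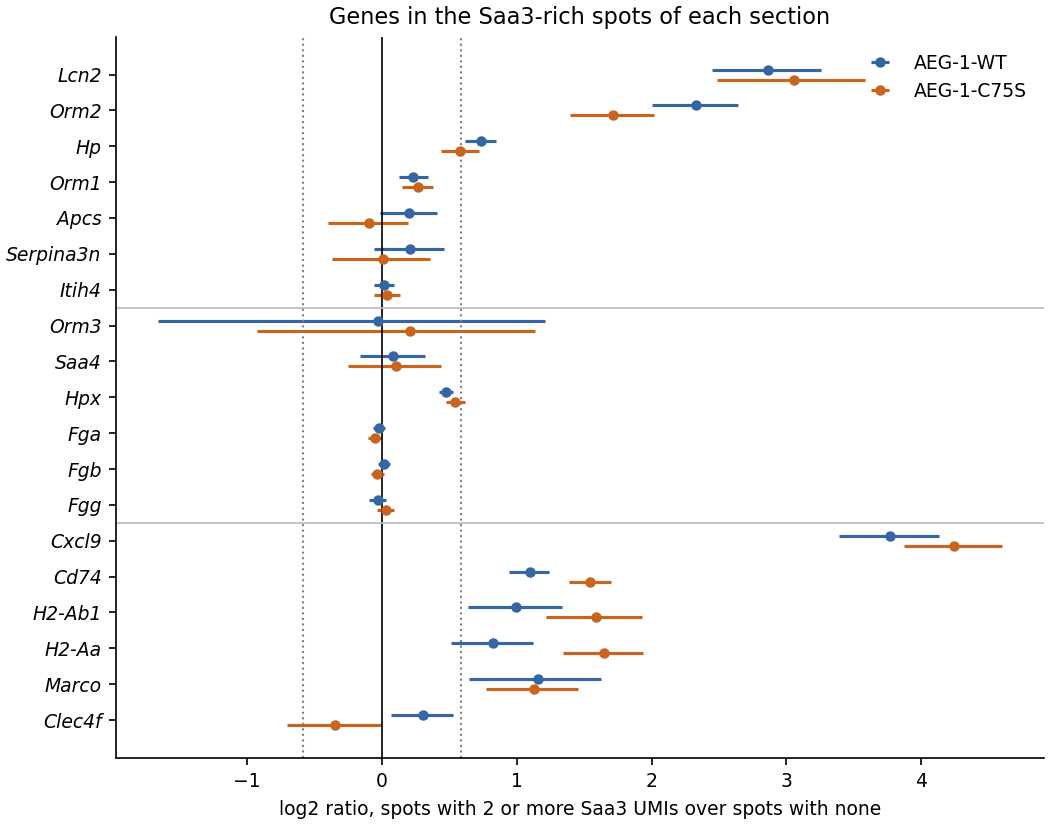
Log2 ratio of each gene in spots with 2 or more Saa3 UMIs (28 in WT, 14 in C75S) over spots with none, with exact binomial 95% intervals and dotted lines at 1.5-fold. From top to bottom, the grey lines separate the other acute phase members, further acute phase genes and immune genes. Lcn2 and Orm2 lie past the right dotted line in both sections, whereas Orm3, Itih4 and the fibrinogen genes lie near 0.

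Correlation over all spots gave the same grouping, as a description of 2309 and 2163 spots that share a library and lie beside each other. The Saa3-rich spots are among them, so the correlation is not independent of the contrast above. Values were Pearson residuals, which take account of each spot's depth. Saa3 correlated with Orm2 at r = 0.42 in WT and 0.18 in C75S, and with Lcn2 at 0.33 and 0.26. Orm2 and Lcn2 correlated at 0.24 and 0.16. Hp correlated with Saa3 at 0.21 and 0.12. Orm1 and Itih4 formed another pair, at 0.20 and 0.13, while Orm1 and Orm2 correlated at 0.06 and 0.08. The genes outside the list whose pattern was most like each member were sought among 4014 genes with at least 0.5 UMI per spot in each section, by the lower of the r values in the sections. For Saa3 they were Cd74, Tmsb4x and H2-Eb1 (r of 0.12 to 0.15 in WT and 0.18 to 0.25 in C75S), and for Lcn2 Cd74, Hpx and H2-Ab1 (0.17 to 0.21 and 0.17 to 0.19). For Orm2 they were Hpx, Trf and Cd74, led by Hpx at 0.22 and 0.16. Orm1 was most like Alb (0.45 and 0.36), Cyp2f2 and Hpx, and Itih4 most like Alb (0.42 and 0.34), Fga and Ahsg, the gene of fetuin A. Hp was most like Kng1 (0.33 and 0.26) and Arg1, and Apcs most like Ttr (0.17 and 0.16), Ahsg and Apoa1. For Serpina3n the closest genes were Fgg, Fgb and Pigr, with r of 0.07 to 0.11.

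**Figure D4:**
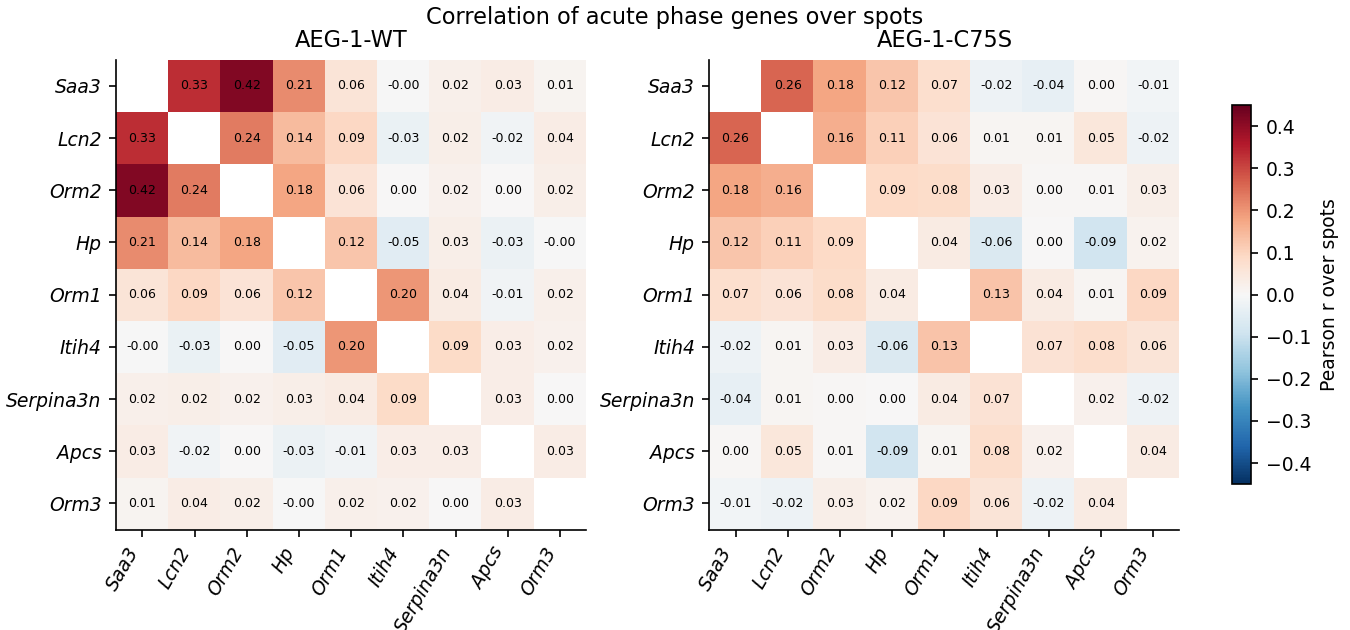
Pearson correlation over spots between the acute phase genes and Orm3 in each section (depth-adjusted residuals, color from blue for negative to red for positive). Saa3, Lcn2, Orm2 and Hp are set side by side in the upper left of both panels, at 0.14 to 0.42 in WT and 0.09 to 0.26 in C75S. Orm1 and Itih4, at 0.20 and 0.13, lie above the lowest of these pairs.

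The wider acute phase program did not differ past 1.5-fold as a block between the sections. A larger share of its genes lay above 0 than among all genes. Of the 29 other positive acute phase genes with at least 50 UMIs, 2 were past 1.5-fold upward in C75S and 3 downward, with a median log2 ratio of 0.03. Over all genes the shares were 2.29% upward and 5.2% downward. Of the 29 ratios, 17 were above 0, against 40.3% over all genes. The summed level of the list was 56493 CPM in WT and 64484 CPM in C75S (log2 ratio 0.19). The upward ones past 1.5-fold were Orm3 and Serpina3g, an intracellular protease inhibitor, which went from 24.7 to 43.0 CPM (log2 ratio 0.80, 0.69 to 0.91). The downward ones past 1.5-fold were Hamp, Mt1 and Mt2. Hamp, the gene of the iron hormone hepcidin, went from 928 to 503 CPM (-0.88), and the metallothioneins Mt1 and Mt2 from 1767 to 776 CPM (-1.19) and from 955 to 324 CPM (-1.56). The fibrinogen genes, named after their values were seen, were higher in C75S but short of 1.5-fold, with Fga at 0.55 (0.54 to 0.55), Fgb at 0.47 and Fgg at 0.52. C3, the central complement protein, Crp, the gene of C-reactive protein, and Lbp, which binds bacterial lipopolysaccharide, had ratios of 0.02, 0.03 and 0.02. Saa4, the constitutive serum amyloid A, was at 276 and 209 CPM (-0.40). Of 13 negative acute phase genes, none was past 1.5-fold in either direction, and their median was 0.10. Ratios were above 0 for 9 of them and below for 4, with Apoa1 the highest at 0.50. Alb had a ratio of -0.07 and Ttr, which encodes the thyroid hormone carrier transthyretin, of 0.19. Serpina6, the carrier of glucocorticoids in plasma, had a ratio of -0.58, just short of 1.5-fold.

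Of 16 genes of the IL-6 receptor family and STAT3 signaling, 4 were past 1.5-fold upward and none downward, with a list median of 0.05. Over all genes the shares were 2.29% upward and 5.2% downward. Whether these 16 genes bear on the levels of the members was not tested. Lepr, the leptin receptor, which signals through STAT3, went from 412 to 1263 UMIs (9.75 to 30.3 CPM, log2 ratio 1.64, 1.47 to 1.80). The feedback inhibitors Socs2 and Socs3 went from 3.91 to 10.2 CPM (1.39) and from 15.5 to 23.6 CPM (0.61, 0.46 to 0.75). Il22ra1, the receptor chain for IL-22, went from 126 to 192 UMIs (0.63, 0.30 to 0.96). Stat3 itself was at 120 and 146 CPM (0.29), Il6ra at 49.8 and 51.6 CPM (0.05) and the shared receptor Il6st at 142 and 163 CPM (0.20). None of the 13 genes of IL-1 and NF-κB signaling and none of the 10 hepatic transcription factors was past 1.5-fold. Nearest to the line was the IL-1 receptor Il1r1, at 0.58, while its partner chain Il1rap was at -0.47. Cebpb, which encodes a C/EBP factor, was at 350 and 375 CPM (0.10).

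**Figure D5:**
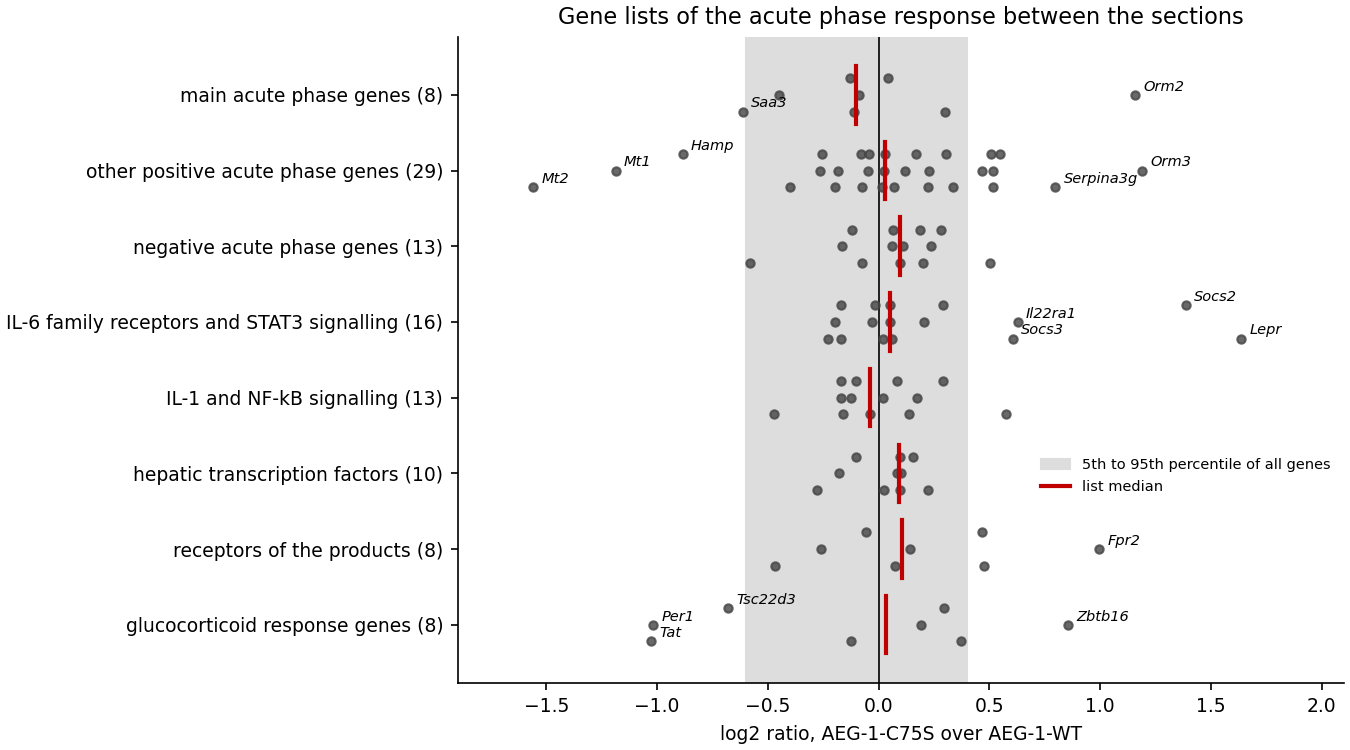
Log2 ratios of C75S over WT for the genes of each list with at least 50 UMIs (dots, number of genes in parentheses, vertical position within a list has no meaning), with the list median in red and the 5th to 95th percentile of all genes in grey. The list medians lie between -0.10 and 0.11, and the genes past 1.5-fold are named.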

How the data were processed

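The authors profiled formalin-fixed liver with Visium, which reads each mRNA through a ligated probe pair caught in a spot. Per the labels, Space Ranger 2.0.1 was run on mm10 and Seurat 4.3.0 was used downstream. The deposited values are raw counts of UMIs per gene and spot, without normalization, and they were used as deposited, after removal of spots with over 50000 UMIs. Counts were summed per section and per quintile of the spots ordered by (Cyp2f2+1)/(Cyp2e1+1), and divided by the total. Sections were compared as ratios with exact binomial 95% intervals (Python 3.11.15, SciPy 1.17.1), and a call means past 1.5-fold with at least 50 UMIs. The ratio and its interval were tested on simulated section sums that held counting error alone. Spread between spots or between mice was not part of that simulation. With 1 section per genotype no test across mice was possible. The members and lists were chosen with earlier results of these data known. All members were named, as were list genes past 1.5-fold with at least 100 UMIs and, per member, the 3 genes most like it over spots, of which 1 is not reported here. The contrast of Saa3-rich spots and its limit of 2 UMIs were chosen after seeing the data. Exceptions named after their values were seen are Cxcl9, H2-Eb1, Ccl24, Gbp2, Irf8, Evl, Coro1a, Ccr2, the fibrinogen genes and other list genes short of 1.5-fold. Alternatives covered the spot filter, scaling (TMM from edgeR 4.0.16 included), the weighting and depth of spots, the axis, spots rich in other cell types, the fold and the minimum count. No columns of other samples were present, and spatial coordinates of spots were not used here.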

Additional observations from a re-analysis of the deposited data

How the results depend on the processing

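Orm2 was past 1.5-fold in all 13 alternatives computed for its ratio between the sections, which ran from 1.13 to 1.22 on the log2 scale, and Saa3 was past it in 5 of 12, from -0.67 to -0.43. No member changed sign between the sections under any of them. The count of members past 1.5-fold between the sections, 2 as reported, fell to 1 (Orm2) when ratios were centred on the median gene, with totals without the 20 most abundant genes, with TMM factors, with spots matched on total UMIs, without the 1% of spots highest in the gene, without the 10% of spots richest in Kupffer cell or in portal connective tissue genes, without spots with a Saa3 UMI (an alternative chosen after seeing the data, in which Saa3 has no value) and at 2-fold. The count along the axis, 1 as reported (Lcn2), was 0 without the 1% of spots highest in the gene, without spots with a Saa3 UMI and at 2-fold. The count of members whose axis ratio differed, 0 as reported, was 1 (Saa3) without the spot filter, with other axis markers, with equal weight per spot, without the spots richest in portal connective tissue genes and at the lower fold tried. The remaining 31 recomputed counts stayed within 1.5 times of the reported ones. The other limits on Saa3 UMIs were also chosen after seeing the data. Depth limits Saa3 most, since its 234 and 151 UMIs cannot resolve an axis ratio. No paired analysis was possible because each genotype has 1 section.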

Other observations

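Glucocorticoids act with IL-6 on several acute phase genes. Of 8 glucocorticoid response genes, 1 was past 1.5-fold upward in C75S and 3 downward, against 2.29% and 5.2% of all genes. Tat, a liver enzyme of tyrosine breakdown, was at 925 CPM in WT and 454 CPM in C75S (log2 ratio -1.03), Per1, a clock gene, at 35.4 and 17.5 CPM (-1.02), and Tsc22d3 at 67.8 and 42.4 CPM (-0.68). Zbtb16 was at 8.66 and 15.7 CPM (0.85), and Fkbp5 at 52.9 and 68.5 CPM (0.37). The list median was 0.03.

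Of 11 cytokine genes of the response, 6 had at least 50 UMIs over both sections. Il6 had 9 UMIs in WT and 10 in C75S, Il22 had none, while Il1a had 307 and 358 and Il1b 228 and 221. Tnf had 24 and 48 UMIs, a log2 ratio of 1.02 (0.28 to 1.79). In the spots with 2 or more Saa3 UMIs, Tnf had 2 UMIs in WT (4.11 against 0.565 CPM in spots without Saa3). In C75S it had 3 UMIs (9.40 against 1.03 CPM). The log2 intervals were -0.27 to 4.89 and 0.85 to 4.84. Il1a was 1.38-fold higher on 5 UMIs in WT and 4.14-fold higher on 11 in C75S (1.03 to 2.91 on the log2 scale). Il1b was 1.18-fold and 1.19-fold higher, on 3 and 2 UMIs. Il6 had 0, which is uninformative at 0.23 CPM in spots without Saa3. Of 8 receptors of acute phase proteins with enough UMIs, Fpr2, a receptor for serum amyloid A, was the sole one past 1.5-fold, at 154 and 303 UMIs (1.99-fold). Cd163, which takes up haptoglobin with hemoglobin, was at 44.4 and 32.1 CPM (-0.47, -0.57 to -0.36).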
